A study of Mus musculus with 32 samples.

Results

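The haemoglobin and erythroid transcripts described here were Hba-a1, Hbb-b1 and Alas2, each read by 1 probe. These 3 of 17877 genes, and 3 of 25697 probes, were those whose target name in the scanner exports was one of the 3 symbols. The members were selected on their measured signal differences from sham in these same arrays, so their levels and differences from sham are given as a description without a test. Haemoglobin carries oxygen in red cells and joins alpha chains, such as the product of Hba-a1, to beta chains, such as the product of Hbb-b1. Alas2 is the erythroid form of 5-aminolevulinate synthase, which catalyses the first step of heme synthesis in developing red cells. Its relative Alas1 serves that step in other tissues. Circulating red cells have no nucleus, and reticulocytes, the youngest of them, still carry RNA for globins. Brain cells have also been reported to hold globin transcripts at low levels.

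Signals came from Illumina MouseRef-8 bead arrays hybridised with RNA from cortex or striatum of mice labelled Gpx1-/- on a C57/Bl6 background, aged 8 to 10 weeks. The label stands for loss of glutathione peroxidase 1, an enzyme that reduces peroxides, in all groups, sham included. Treated mice underwent 2 h of middle cerebral artery occlusion by an intraluminal suture and then 2, 8 or 24 h of reperfusion. Sham mice received the anaesthetic and the neck incision but no suture, so no group controlled for suture passage alone. The 32 arrays formed 8 groups of 4. The growth protocol names male wild-type mice while titles, genotype and treatment fields name Gpx1-/-, and no array is labelled wild type. The Gpx1 probe was detected on 32 of 32 arrays, and without wild-type arrays this checks no label. Nothing in the labels says which cortex and striatum arrays came from the same mouse, or that the 4 arrays of a group are separate mice, so p-values measure only the spread between arrays.

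Between 10701 and 11935 probes per array were detected, meaning a detection p under 0.01 against the array's negative controls, and replicate arrays of a group correlated at 0.956 to 0.994 over probes. The cortical markers Fezf2, Rorb, Slc17a7 and Tbr1 had higher means in cortex. Among 4 measured striatal markers, Drd2 and Tac1 had higher means in striatum, whereas Drd1 averaged 8.53 in cortex and 8.25 in striatum on the log2 scale and Ppp1r1b likewise had the higher mean in cortex. The striatal label was therefore borne out by only 2 of these 4 markers. In whole tissue, fewer cells of a type and less RNA per cell cannot be told apart.

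The probe named Hbb-b1 carries a transcript that RefSeq now lists as Hbb-bt, a beta-globin gene on chromosome 7. Hba-a1 lies on chromosome 11, beside the near-identical Hba-a2, and Alas2 lies on chromosome X. Over the 250 bases before their starts, Hba-a1 and Hba-a2 share an unbroken run of 247 bases, and the Hba-a1 probe may read both transcripts. The upstream sequences are shown because the 3 transcripts moved together across arrays. They come from RefSeq on GRCm38.p6, and all 3 members matched an entry, Hbb-b1 as Hbb-bt. Their positions are chr11:32283422-32283671 on the plus strand for Hba-a1, chr7:103813924-103814173 on the minus strand for Hbb-bt and chrX:150547167-150547416 on the plus strand for Alas2. Each is written 5′ to 3′ and ends at the base before the start of the gene. Capitals mark matches on either strand to the 4 GATA words, which are AGATAA with its variant TGATAA, and the forms that end in G, AGATAG beside TGATAG.
Hba-a1: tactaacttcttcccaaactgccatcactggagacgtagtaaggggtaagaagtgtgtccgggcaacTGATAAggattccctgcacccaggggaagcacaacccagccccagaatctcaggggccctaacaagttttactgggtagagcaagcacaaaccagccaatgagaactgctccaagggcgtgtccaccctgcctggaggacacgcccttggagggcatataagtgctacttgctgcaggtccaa
Hbb-bt: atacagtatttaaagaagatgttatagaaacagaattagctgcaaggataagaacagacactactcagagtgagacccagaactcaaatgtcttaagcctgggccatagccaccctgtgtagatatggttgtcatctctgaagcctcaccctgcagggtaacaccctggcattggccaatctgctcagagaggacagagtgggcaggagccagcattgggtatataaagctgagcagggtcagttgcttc
Alas2: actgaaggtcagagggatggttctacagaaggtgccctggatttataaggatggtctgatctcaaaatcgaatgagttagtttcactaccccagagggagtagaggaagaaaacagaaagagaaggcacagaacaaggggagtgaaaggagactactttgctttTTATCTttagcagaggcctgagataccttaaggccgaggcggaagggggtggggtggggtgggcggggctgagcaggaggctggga

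GATA words are the sites that GATA1, the main erythroid transcription factor, is known to bind. Hba-a1 held 1 match, at 183 to 178 bases before its start, Alas2 held 1, at 86 to 81 bases before its start, and Hbb-bt held 0. Of 32851 mouse promoter windows of the same length, 26.5% held at least 1 such word. The letters CACCC, searched on both strands, occurred 2 times in Hba-a1, 3 times in Hbb-bt and 3 times in Alas2, and 52.0% of the windows held them. CCAAT occurred 1 time in Hba-a1, 3 times in Hbb-bt and 0 times in Alas2, and 33.8% of the windows held it. No match shared a base with another, and a match is a description of the sequence only.

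Hba-a1, an alpha chain of adult haemoglobin, was detected on 32 of 32 arrays and spanned a 68.1-fold range of signal, from 204.1 to 13906.6. In cortex its signals in replicates 1 to 4 were 460.1, 545.6, 226.4 and 314.7 in sham. They were 2355.6, 9656.4, 13710.6 and 3631.6 at 2 h. All 4 arrays at 2 h were above all 4 sham arrays. At 8 h the signals were 916.3, 7744.2, 510.9 and 1806.3, and at 24 h they were 343.5, 1155.2, 606.0 and 13906.6. Replicate 2 stood highest at 8 h and replicate 4 at 24 h, and the lowest array at each of these times lay within the sham range.

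In striatum, Hba-a1 signals were 311.5, 2527.6, 213.8 and 305.8 in sham. At 2 h they were 7160.1, 2823.4, 9135.0 and 5425.4. The arrays at 2 h were again all above sham, although sham replicate 2 came close to the lowest of them. At 8 h the signals were 791.0, 831.3, 204.1 and 778.2, and at 24 h they were 1323.8, 9400.8, 360.7 and 9523.6. The 8 h arrays all lay below sham replicate 2, and at 24 h replicates 2 and 4 were high while replicates 1 and 3 lay within the sham range.

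Hbb-b1, a beta chain of adult haemoglobin, gave weaker signals, from 55.6 to 841.8, and was detected on 19 of 32 arrays. In cortex its signals were 72.4, 102.7, 84.5 and 87.5 in sham, where 1 array detected it. They were 149.0, 492.1, 815.9 and 272.3 at 2 h, detected on 4 arrays. The 2 h arrays were all above sham. At 8 h they were 89.0, 341.2, 92.6 and 135.3, and at 24 h 76.3, 122.1, 85.2 and 841.8. Replicate 2 at 8 h and replicate 4 at 24 h were the high arrays, as for Hba-a1.

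In striatum, Hbb-b1 signals were 86.9, 234.7, 71.5 and 74.8 in sham. At 2 h they were 356.8, 151.6, 470.5 and 257.1. These groups overlapped, since sham replicate 2 was above replicate 2 at 2 h. At 8 h they were 81.6, 83.5, 64.0 and 80.4, and at 24 h 55.6, 379.4, 78.9 and 434.4. Replicates 2 and 4 at 24 h were the high arrays here too.

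Alas2 was the dimmest of the 3, with signals from 42.4 to 237.8, and was detected on 9 of 32 arrays. In cortex its signals were 58.8, 61.9, 51.0 and 52.2 in sham, where no array detected it. At 2 h they were 74.3, 153.6, 218.2 and 89.2, with replicates 2 and 3 detected. All 4 arrays at 2 h were above sham. At 8 h they were 60.8, 108.4, 55.4 and 55.9, and at 24 h 48.8, 69.1, 51.7 and 237.8, with 1 array detected at each time.

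In striatum, Alas2 signals were 42.4, 89.1, 45.1 and 48.2 in sham, again with no detection. At 2 h they were 108.9, 69.2, 126.6 and 86.4, with replicates 1, 3 and 4 detected. Sham replicate 2 overlapped the 2 h range. At 8 h they were 50.2, 58.3, 47.2 and 43.0, not well above background on any array, and at 24 h 52.7, 160.7, 45.7 and 154.1, with replicates 2 and 4 detected.

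**Figure D1:**
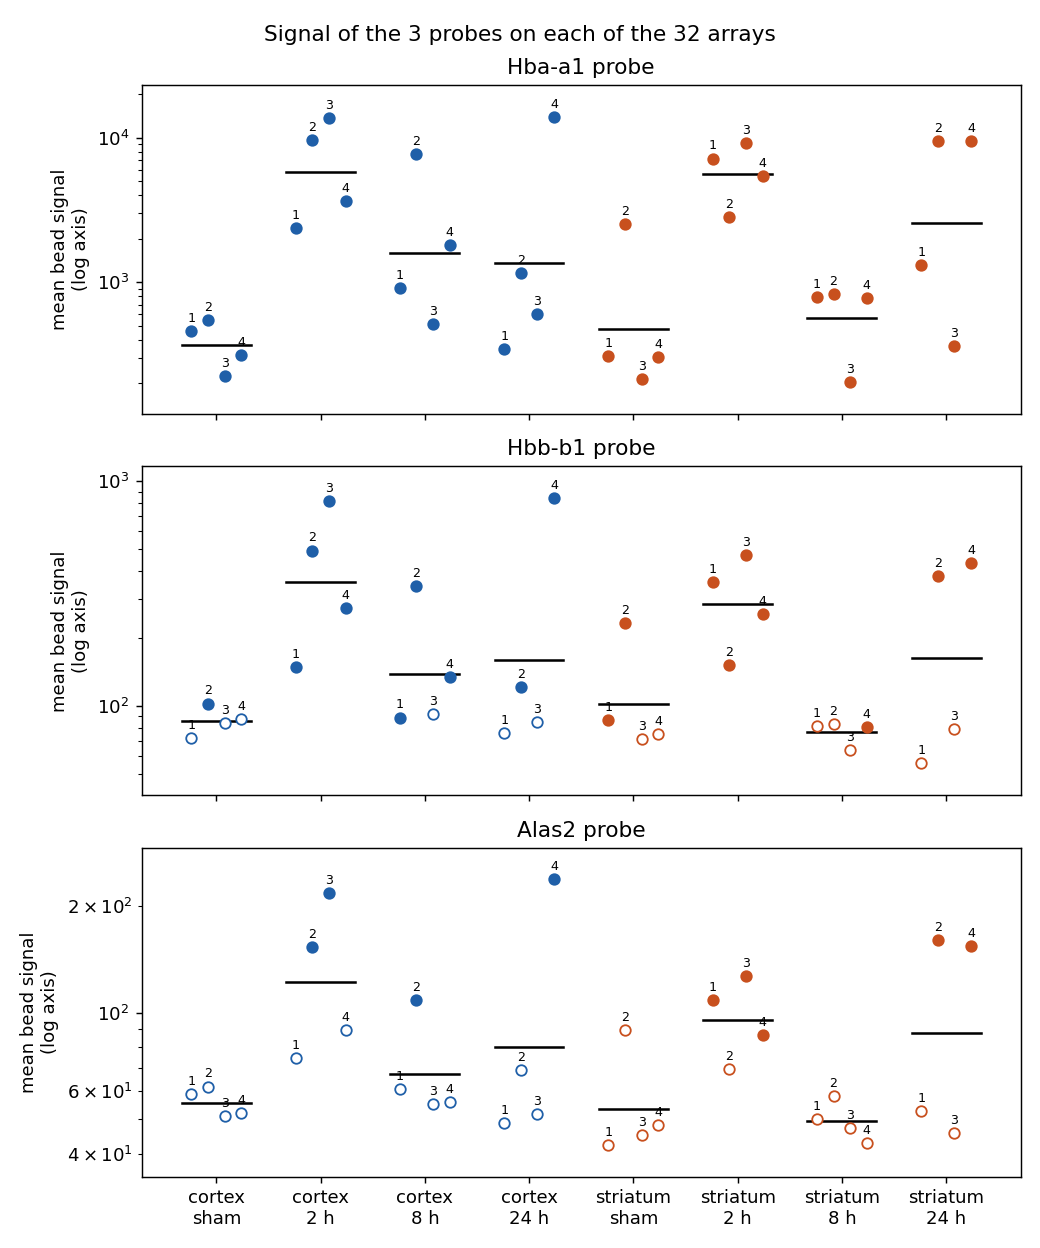
Mean bead signal (log axis) of the Hba-a1, Hbb-b1 and Alas2 probes on the 32 arrays, by region and time; numbers are replicates, filled points were detected, open points were not, and bars are the mean of the log signals of the 4 arrays. The 2 h groups lie highest for Hba-a1, and single arrays such as cortex 24 h replicate 4, at 13906.6 for Hba-a1, stand far above the rest of their group.

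After background correction and quantile normalization, the group means of Hba-a1 on the log2 scale were 8.15 ± 0.70 (SD, n = 4) in sham cortex and 12.44 ± 1.14 at 2 h, a difference of 4.29 (SE 1.04), or 19.5-fold. Hbb-b1 went from 5.48 ± 0.30 to 8.21 ± 1.19, a difference of 2.72 (SE 0.85). Its ratio of 6.61-fold is set against a sham group in which 1 of 4 arrays detected the probe. Alas2 had 4.66 ± 0.12 and 6.22 ± 1.10, a difference of 1.55 (SE 0.60), and since sham was not well above background its ratio is at least 1.35-fold. Such a bound sets the bright group's mean against the lowest detected signal of each dim array. The 4 arrays at 2 h lay above the 4 sham arrays for 3 of 3 members, which was also the case for 9.01% of the 9475 genes measured. The array codes put each replicate number of a region on 1 slide, and within slides 1 to 4 the Hba-a1 difference was 2.69, 4.32, 6.38 and 3.77. Hbb-b1 and Alas2 were likewise higher than sham on 4 of 4 slides in cortex at 2 h. Every array of a group lay at the same place on its slide, and the effect of place cannot be told apart from that of treatment.

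In striatum at 2 h, Hba-a1 averaged 12.52 ± 0.81 (SD, n = 4) against 8.67 ± 1.58 in sham on the log2 scale, a difference of 3.85 (SE 1.04), or 14.4-fold. Hbb-b1 averaged 8.04 ± 0.93 against 5.97 ± 0.93, a difference of 2.07 (SE 0.85). Its ratio of 4.2-fold is set against a sham group in which 2 of 4 arrays detected the probe. Alas2 averaged 5.96 ± 0.72 against 4.78 ± 0.46, a difference of 1.18 (SE 0.60) and a ratio of at least 1.23-fold. Only Hba-a1 had all 4 arrays above all 4 sham arrays, beside 9.84% of all genes measured. Within slides 1 to 4 the Hba-a1 difference was 4.93, 0.38, 5.72 and 4.36. The small value belonged to slide 2, which held the highest sham array, and on that slide the Hbb-b1 difference was -0.59 and the Alas2 difference -0.50.

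At 8 h, the log2 differences from sham in cortex were 2.36 (SE 1.04) for Hba-a1, 1.02 (SE 0.85) for Hbb-b1 and 0.38 (SE 0.60) for Alas2. Without replicate 2 of the 8 h group they were 1.58, 0.46 and 0.04. In striatum at 8 h they were 0.64 (SE 1.04), -0.32 (SE 0.85) and -0.14 (SE 0.60), and without sham replicate 2 they were 1.41, 0.13 and 0.08. The sign for Hbb-b1 and Alas2 in striatum at 8 h thus turned with 1 sham array. None of the 3 members was above sham on all 4 arrays at 8 h in either region, compared with 9.78% of genes in cortex and 12.1% in striatum.

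At 24 h, the differences in cortex were 2.01 (SE 1.04) for Hba-a1, 1.07 (SE 0.85) for Hbb-b1 and 0.73 (SE 0.60) for Alas2. Without replicate 4 of the 24 h group they were 0.83, 0.03 and -0.03, so that 1 array carried nearly all of the Hbb-b1 and Alas2 differences. In striatum at 24 h they were 2.84 (SE 1.04), 1.08 (SE 0.85) and 1.14 (SE 0.60), with an Alas2 ratio of at least 1.20-fold. Leaving out 1 array at a time moved them over 2.17 to 3.83 for Hba-a1, 0.41 to 1.80 for Hbb-b1 and 0.68 to 1.60 for Alas2. All 3 members overlapped sham at 24 h in both regions, where 13.8% of genes in cortex and 13.8% in striatum did not overlap upwards.

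Between times, the step from 2 to 8 h separated all 3 members in striatum. Every 8 h array was below every 2 h array, and the log2 change was -3.21 (SE 1.04) for Hba-a1, -2.39 (SE 0.85) for Hbb-b1 and -1.33 (SE 0.60) for Alas2. Such a separation downwards held for 5.92% of all genes measured. For Alas2 it included arrays without detection, replicate 2 at 2 h (69.2) and the 4 arrays at 8 h. In cortex the arrays overlapped, and the same step gave -1.93, -1.71 and -1.18. The striatal response minus the cortical one at 2 h was -0.44 (SE 1.48) for Hba-a1, -0.66 (SE 1.20) for Hbb-b1 and -0.37 (SE 0.85) for Alas2, each smaller than its error. At 8 h it was -1.72, -1.34 and -0.52, and at 24 h 0.83, 0.01 and 0.42, with the same errors. When the 8 group means of a member were ordered, both 2 h groups came first and second for each of the 3 members and striatum at 24 h came next. No 2 neighbours in that order differed by more than the pooled SD of their arrays.

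**Figure D2:**
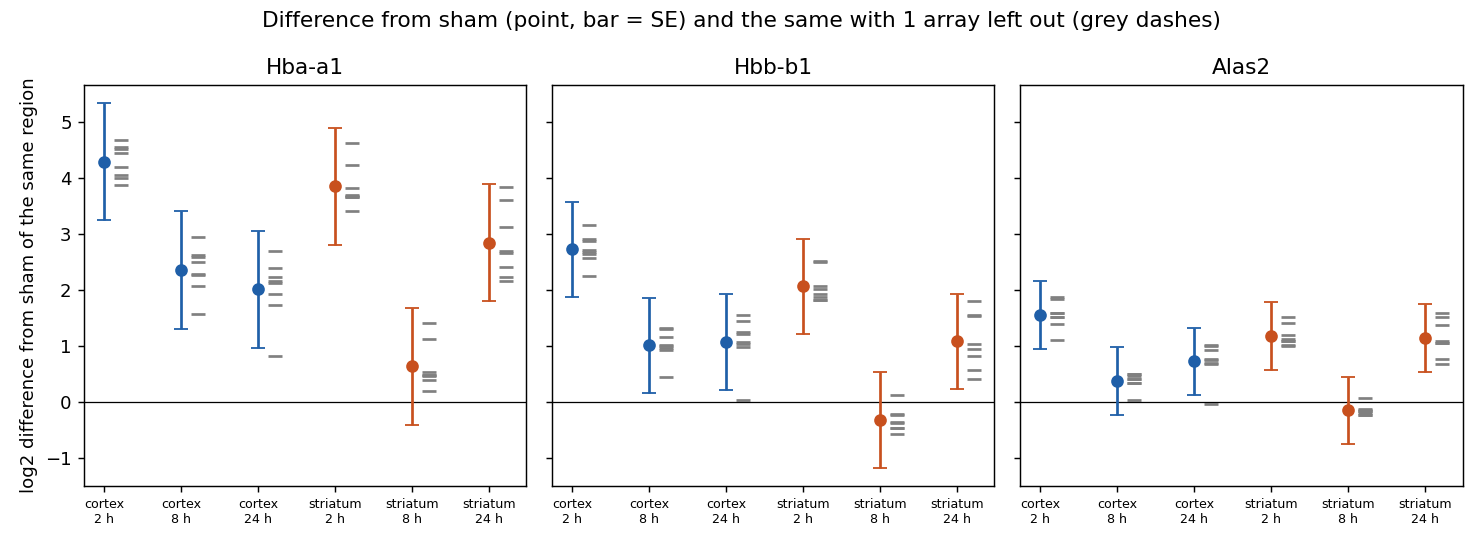
Log2 difference of each treated group from the sham group of its region for the 3 members (points, with bars of 1 SE from the 8-group fit), and the same value when 1 array of either group is left out (grey dashes). The cortex 2 h value of Hba-a1 is 4.29, while the cortex 24 h values of Hbb-b1 and Alas2 reach 0.03 and -0.03 with replicate 4 left out.

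The 3 transcripts rose and fell together from array to array inside groups. This variation is apart from the differences between group means, but both come from the same arrays. In cortex at 24 h, replicate 4 deviated from its group mean by 3.55 for Hba-a1, 3.12 for Hbb-b1 and 2.28 for Alas2. That array also carried nearly all of the Hbb-b1 and Alas2 differences from sham. The members were selected on such differences, so p-values for how they move together may not be independent of the selection. In 6 of 8 groups the same array was highest for all 3 members, and in 3 of 8 groups the same array was lowest for all 3.

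Deviations from the group means were compared over the 16 arrays of each region. In cortex Hba-a1 and Hbb-b1 gave a Pearson r of 0.960 and a Spearman rho of 0.935, Hba-a1 and Alas2 gave 0.914 and 0.885, and Hbb-b1 and Alas2 gave 0.961 and 0.912. In striatum the same pairs gave 0.868 and 0.912, 0.864 and 0.782, and 0.959 and 0.891. The two-sided permutation p of every Pearson r, adjusted over the 6 relations, was at most 3e-05, against a smallest possible raw value of 1e-05. The largest adjusted permutation p of a Spearman rho was 0.00065, for Hba-a1 and Alas2 in striatum. The permutations moved deviations freely between groups whose spread differed, so these p-values may be too small. The SD of Alas2, for example, was 0.03 in striatum at 8 h and 1.45 at 24 h. With the 2 arrays farthest from the median left out, r ranged from 0.803 to 0.942. Beads of 1 array put the standard error of a signal at 2.55 to 5.66% for Hba-a1, 3.92 to 7.69% for Hbb-b1 and 4.07 to 9.6% for Alas2, far below the ranges between arrays.

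**Figure D3:**
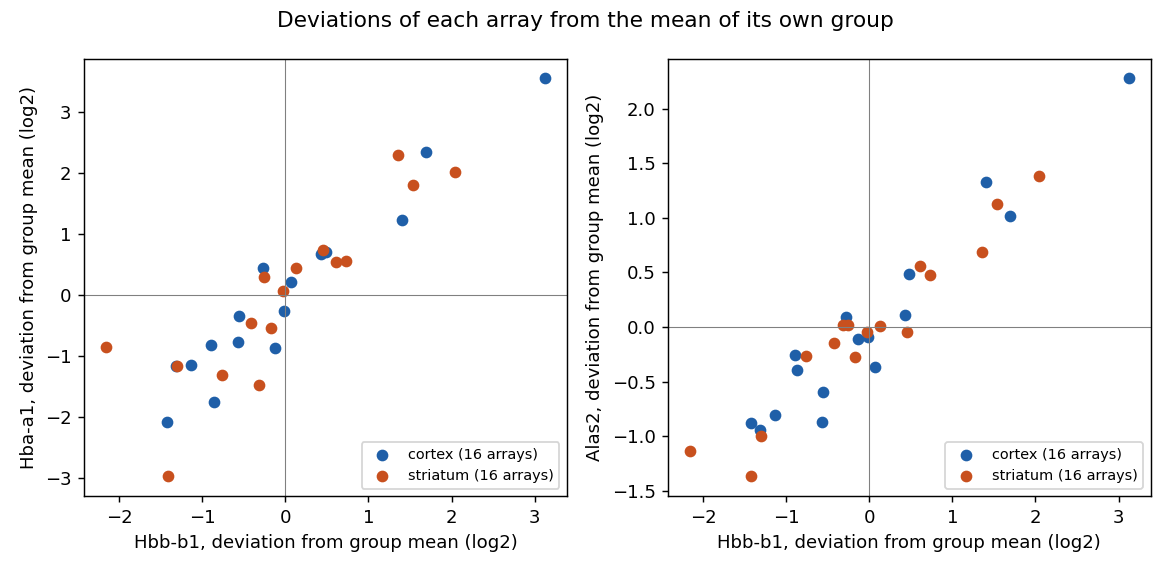
Deviation of each array from its group mean (log2) for Hba-a1 and Alas2 against that of Hbb-b1; each point is 1 of 16 cortex (blue) or 16 striatum (orange) arrays. Points run along a rising line in both regions, with r from 0.868 to 0.961.

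Over all 32 arrays, group differences included, the 9 arrays on which Alas2 was detected were also the 9 highest for Hba-a1 and for Hbb-b1. Since the members were selected on their differences from sham, this order is a description only. Of the 9 arrays, 5 were at 2 h, 1 at 8 h, 3 at 24 h and 0 in sham. On them Hba-a1 lay between 12.6 and 13.7 on the log2 scale, and on the other 23 it reached at most 11.7.

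Other globin genes were not measurable on these arrays. The embryonic chains Hba-x, Hbb-bh1 and Hbb-y, the beta chain Hbb-b2 and the theta-like Hbq1a and Hbq1b had 7 probes for 6 genes, and 0 of 6 genes was detected on any array, with signals from 37.2 to 84.5. The red cell markers Slc4a1 (the band 3 anion exchanger), Ahsp (which stabilises free alpha chains) and Bpgm (which makes the red cell regulator 2,3-bisphosphoglycerate) were at background on all 32 arrays. The erythroid factors Gata1, Klf1, Gfi1b and Nfe2 were also undetected on all 32 arrays. Inside groups, r with Hbb-b1 was still 0.63 for Slc4a1, 0.48 for Bpgm and 0.33 for Ahsp. It was 0.39 for Nfe2, 0.25 and 0.05 for the Gata1 probes, -0.165 for Gfi1b and -0.26 for Klf1. Over the undetected globin probes it ran from -0.29 (Hba-x) to 0.41 (Hbb-b2). These probes did not enter the main fits, and at background such values are a description only.

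A pair of oxygen-binding globins outside red cells was measured. Cytoglobin (Cygb), found in fibroblasts and some neurons, rose in cortex by 0.40 (SE 0.13, adjusted p = 0.0239) at 8 h and 0.45 (SE 0.13, adjusted p = 0.00692) at 24 h by limma, and did not pass elsewhere. Neuroglobin (Ngb), the globin of neurons, passed in none of the 6 comparisons. The share of all 9475 genes called in either direction was 4.65% in cortex and 6.3% in striatum at 2 h, 20.2% and 25.2% at 8 h, and 33.3% and 30.9% at 24 h. Neither gene followed Hbb-b1 inside groups, with log2 slopes of 0.03 for Cygb (adjusted p = 0.749) and -0.04 for Ngb (adjusted p = 0.747).

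Of the other heme synthesis genes, 13 of 14 on the array were measured. At 2 h in cortex 0 rose and 1 fell, where 2.21% of all genes rose and 2.45% fell. In striatum at 2 h 0 rose and 0 fell, beside 3.49% and 2.81% of all genes. At 8 h 2 rose and 1 fell in cortex, beside 9.58% and 10.6%, and 2 rose and 2 fell in striatum, beside 12.4% and 12.8%. At 24 h 3 rose and 1 fell in each region, beside 15.7% and 17.6% of all genes in cortex and 14.7% and 16.2% in striatum. Alas1, the housekeeping form of the first enzyme, rose by 0.35 (SE 0.09, limma adjusted p = 0.00984) in cortex at 8 h and by 0.56 (SE 0.09, adjusted p = 0.000141) in striatum at 8 h. Alad, the next enzyme, rose by 0.40 in cortex and 0.37 in striatum at 24 h. Cpox, coproporphyrinogen oxidase, fell by 0.74 (SE 0.15, adjusted p = 0.000493) in cortex at 24 h but was detected on only 9 arrays. None of the 13 genes was associated with the Hbb-b1 level inside groups, and the median slope of 0.01 was close to the -0.002 of all genes.

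Genes of the red cell membrane, erythroid transcription and reticulocyte maturation are partly shared with brain cells, and 5 of 6, 4 of 6 and 14 of 15 of those measured were detected on all 32 arrays. Of the 6 measured membrane genes, 0 changed at 2 h in either region. Later, Sptb (beta spectrin) rose by 0.72 in striatum at 8 h and Add1 (alpha adducin) fell by 0.68 in cortex at 24 h, among 1 change at 8 h in each region and 2 at 24 h in each. Of the 6 measured transcription factor and receptor genes, 0 changed at 2 h. Ldb1, a cofactor of GATA complexes, rose at 8 and 24 h in both regions, by 0.73 (SE 0.12, limma adjusted p = 0.000147) in striatum at 8 h. Lmo2, of the same list, fell by 0.52 (limma adjusted p = 0.00587) in striatum at 8 h. At 24 h Lmo2 fell by 0.47 in cortex and 0.37 in striatum. In cortex at 8 h 2 genes of this list rose and 0 fell. In each other comparison at 8 and 24 h 1 rose and 1 fell. Of the 15 measured maturation genes, 0 passed in cortex at 2 h. Beside the counts of these lists, 4.65% of all genes in cortex and 6.3% in striatum passed at 2 h. The shares were 20.2% and 25.2% at 8 h, and 33.3% and 30.9% at 24 h. Of the measured genes in these lists, 0 of 6, 0 of 6 and 0 of 15 followed Hbb-b1 inside groups. Genes of these lists detected on fewer than 4 arrays did not enter that count.

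The clearance genes take up and break down free haemoglobin and heme. Hmox1, heme oxygenase 1, rose in cortex by 2.06 (SE 0.56, limma adjusted p = 0.0106) at 8 h and 2.70 (SE 0.56, adjusted p = 0.000585) at 24 h, and in striatum by 2.68 (adjusted p = 0.000639) at 24 h. Its difference at 2 h in cortex was 1.17 (SE 0.56) with an adjusted p of 0.22. Slc40a1, the iron exporter ferroportin, fell in cortex by 1.08, 0.78 and 0.95 at 2, 8 and 24 h, and in striatum by 0.94 at 2 h and 0.79 at 24 h. Of 9 measured clearance genes, Slc40a1 was the only one to pass at 2 h in each region, beside 4.65% of all genes in cortex and 6.3% in striatum. Hmox1 had a slope on Hbb-b1 of 0.16 (SE 0.12, adjusted p = 0.657) inside groups.

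To find which transcripts differed with haemoglobin between arrays of 1 group, every other gene was fitted with limma on the 8 groups plus the Hbb-b1 level over all 32 arrays. Of 9474 genes, 24 passed an adjusted p of 0.05, or 0.253%, with 21 higher where Hbb-b1 was higher (0.222%) and 3 lower (0.0317%). At an unadjusted p under 0.05 the count was 1047. Alas2 led, with 0.68 log2 units per log2 unit of Hbb-b1 (SE 0.04, adjusted p = 3.13e-12), followed by Hba-a1 with 1.13 (SE 0.09, adjusted p = 7.94e-09). Both are members selected on these arrays, and their p-values may not be independent of that selection. The other 22 included 19 higher genes, with slopes from 0.10 to 0.73.

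Among the 19 higher genes were 3 of the 6 measured neutrophil and monocyte markers, S100a8, S100a9 and Plac8. Lyz2, lysozyme of myeloid cells, had a slope of 0.29 (SE 0.04, adjusted p = 0.000319) and was detected on 32 arrays. Its near-copy Lyz1 had 0.28 and Alox5ap, which activates 5-lipoxygenase for leukotriene synthesis, had 0.19, both on 32 arrays. Lyz1 and Lyz2 are close paralogs, and their probes may share signal. S100a9 and S100a8, the calcium-binding pair of calprotectin, had slopes of 0.73 (SE 0.13, adjusted p = 0.00574, detected on 22 arrays) and 0.73 (SE 0.15, adjusted p = 0.0217, detected on 28 arrays). Hp, haptoglobin, which binds free haemoglobin and is also stored in neutrophils, had 0.22 (SE 0.03, adjusted p = 0.000319) but was detected on only 7 arrays.

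Clec4d, a myeloid C-type lectin, had a slope of 0.47 (SE 0.06, adjusted p = 0.000126, detected on 5 arrays). Plac8, abundant in monocytes and neutrophils, had 0.30 on 9 arrays. Chil3, a secreted macrophage protein, had 0.50 on 6 arrays, and Slpi, a leukocyte protease inhibitor, had 0.48 on 4 arrays. The formyl peptide receptor Fpr2 had 0.38, the cystatin gene Cstdc4 had 0.43 and Gmfg, an actin regulator of blood cells, had 0.16. Togaram2 had 0.10 on 14 arrays. Of these 19 genes, 11 were detected on only 4 to 9 arrays and lay at background on the others. Wfdc17, Lrg1, Arg1, Slc24a1 and Ltb4r1 complete the 19. The lower genes were Hcrtr1 (the orexin receptor 1, slope -0.12), Gm5796 (-0.09) and Srpk2 (a kinase of splicing factors, -0.12), and the 5 genes most opposed to Hbb-b1 also included Necap1 (r = -0.71) and Zw10 (r = -0.69), which did not pass.

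The values of S100a9 on the log2 scale show the pattern and an exception. In cortex at 2 h they were 5.97, 7.65, 8.15 and 6.90 in replicates 1 to 4, in the same order as Hbb-b1. In striatum at 24 h they were 6.91, 8.89, 7.05 and 9.65, with replicates 2 and 4 high for both genes. In cortex at 24 h they were 4.77, 10.6, 6.02 and 10.1. There replicate 4 was high for both, but replicate 2 was high for S100a9 and had an Hbb-b1 signal of 122.1. Lyz2 in that group had 7.63, 8.12, 8.28 and 9.55, highest in replicate 4.

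The set of genes that passed depended on the 24 h arrays, on slide and on single arrays. With slide as a block, 7 of the 24 passed, and the adjusted p was 0.0976 for S100a9, 0.182 for S100a8, 0.0976 for Alox5ap and 0.0719 for Chil3. Without the 8 arrays at 24 h, 4 genes passed, of which 3 were among the 24: Alas2, Hba-a1 and S100a9. Cortex alone gave 2 genes, Alas2 and Hba-a1, and striatum alone gave 6, of which 5 were among the 24 (Alas2, Hba-a1, Clec4d, S100a9 and Slpi). Without cortex 24 h replicate 2, 77 genes passed, including all 24. Without cortex 24 h replicate 4, 17 passed, 10 of them among the 24, and S100a9 then had a slope of 0.74 with an adjusted p of 0.056. With ranks in place of the Hbb-b1 levels, only Hba-a1 passed (adjusted p = 0.0149), and Alas2 had an adjusted p of 0.0873. With the Hba-a1 level in place of Hbb-b1, 22 genes passed, and 18 of the 23 genes from the main set that could be tested were still called. The 3 lower genes were not, with limma adjusted p of 0.099 for Hcrtr1, 0.175 for Gm5796 and 0.191 for Srpk2.

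**Figure D4:**
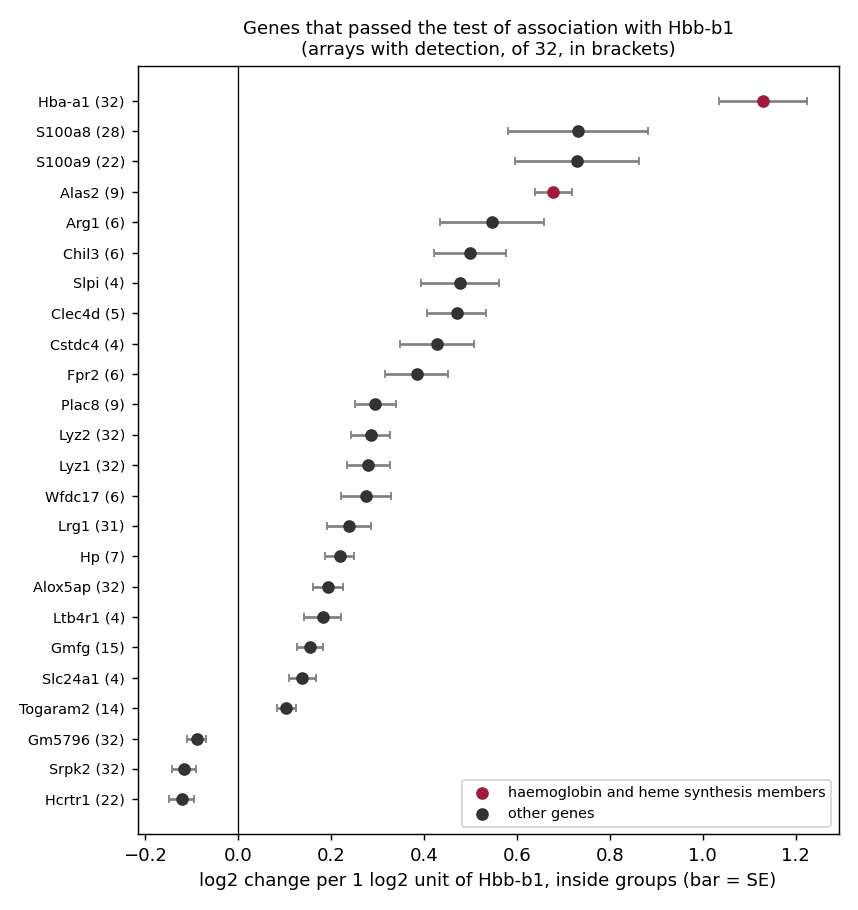
Slope of each of the 24 genes that passed, as log2 change per log2 unit of Hbb-b1 inside groups (points, bars of 1 SE), with the number of arrays that detected the gene in brackets. Hba-a1 lies at 1.13 and Alas2 at 0.68 (red), S100a8 and S100a9 at 0.73, and 3 genes lie below 0.

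**Figure D5:**
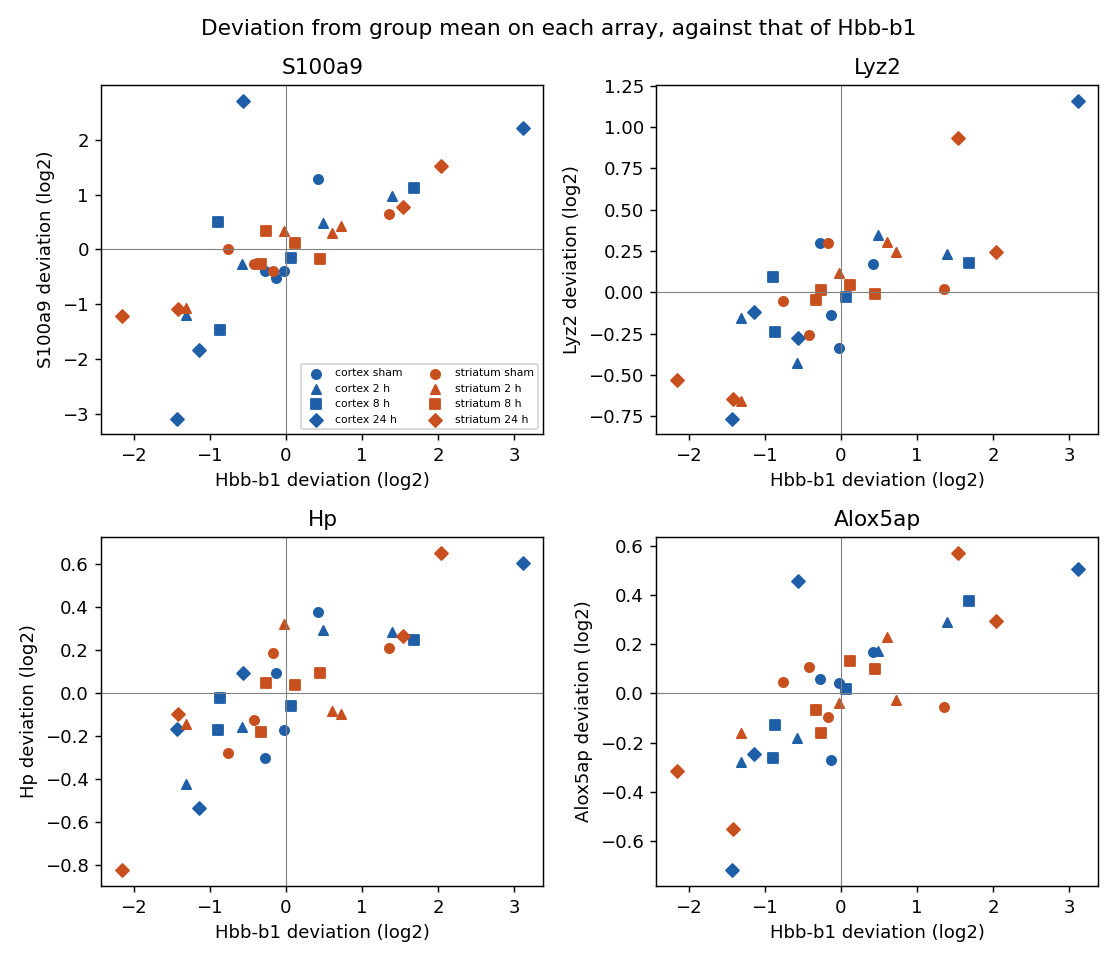
Deviation from the group mean (log2) of S100a9, Lyz2, Hp and Alox5ap against that of Hbb-b1 on the 32 arrays, by region (colour) and time (shape). The widest spread belongs to the 24 h arrays (diamonds), and cortex 24 h replicate 2 stands apart at the upper left for S100a9.

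Marker lists of other blood and vessel cells were set beside these values. Of 15 neutrophil and monocyte markers on the array, 6 were detected on at least 4 arrays and so measured. Among these 6, 3 were associated with Hbb-b1 (Plac8, S100a8 and S100a9), beside 0.222% of all genes in that direction. Plac8 was detected on only 9 arrays and Retnlg and Csf3r on 7 each, so the share describes the measured genes and not the list. Retnlg had a slope of 0.48 (adjusted p = 0.0934), Mmp9 0.16 (adjusted p = 0.0757) and Csf3r 0.10 (adjusted p = 0.293). Their mean level on the log2 scale ranged over 5.11 to 5.80 in sham cortex and 5.61 to 6.96 at 2 h. In striatum it ranged over 5.20 to 5.52 in sham and 5.84 to 6.85 at 2 h. At 8 h it ranged over 5.45 to 6.48 in cortex and 5.41 to 5.83 in striatum, and at 24 h over 5.40 to 8.39 and 6.30 to 7.95. The striatal 2 h range lay above sham, and the cortical one overlapped it. Of these 6 genes, 0 passed against sham at 2 or 8 h, while 4 rose in cortex and 5 in striatum at 24 h, S100a8 by 3.42 (SE 0.92, limma adjusted p = 0.00536) and 3.67 (SE 0.92, adjusted p = 0.00313). Of all genes in cortex and striatum, 4.65% and 6.3% passed at 2 h, 20.2% and 25.2% passed at 8 h, and 15.7% and 14.7% rose at 24 h. The granule genes Elane, Mpo and Camp were undetected on all 32 arrays. The part of such cells in the haemoglobin values was not tested.

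Of 4 measured platelet markers, 0 were associated with Hbb-b1, with Pf4 (platelet factor 4) at a slope of 0.34 (SE 0.08) and an adjusted p of 0.0929. Pf4 rose at 24 h by 1.33 in cortex (limma adjusted p = 0.0299) and 2.13 in striatum (adjusted p = 0.0011), and its difference in cortex at 2 h was 1.29 (SE 0.47, adjusted p = 0.104). Gp5, a platelet glycoprotein, rose at 24 h by 0.50 in cortex and 0.42 in striatum and at 8 h by 0.63 in striatum. Gp1bb, another subunit of the same receptor, fell by 0.96 (SE 0.20, limma adjusted p = 0.000487) in cortex at 24 h. The mean level of the platelet list ranged over 5.64 to 5.73 in sham cortex and 5.71 to 6.29 at 2 h, while the platelet genes Gp9, Gp1ba and Treml1 were undetected throughout. Of 7 endothelial markers, 0 passed the association with Hbb-b1 after adjustment. Their slopes were all above 0, from 0.07 to 0.18, and 6 of 7 had an unadjusted p under 0.05, beside 11.1% of all genes. Emcn (endomucin) had 0.18 (SE 0.05, adjusted p = 0.163) and Vwf (von Willebrand factor) 0.13 (SE 0.04, adjusted p = 0.178). At 2 h 0 of 7 passed against sham, beside 4.65% of all genes in cortex and 6.3% in striatum. At 24 h 6 of 7 rose in each region, beside 15.7% of all genes in cortex and 14.7% in striatum. Vwf rose by 1.84 in cortex and 1.82 in striatum. Of 2 lymphocyte and 7 choroid plexus markers, 0 and 0 were associated with Hbb-b1. Cd3e, a T cell receptor subunit detected on only 4 of 32 arrays, rose in striatum by 0.90 at 8 h and 0.46 at 24 h and in cortex by 0.48 at 24 h. Lck, a T cell kinase, rose in striatum at 8 h by 0.41, and no choroid plexus marker passed in any comparison. Fitting the Hbb-b1 level beside the groups, an alternative chosen after seeing the data, changed the number of genes called at 2 h from 441 to 142 in cortex and from 597 to 324 in striatum. This covariate itself differed between the groups.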

How the data were processed

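Bead intensity, bead SD and bead number per probe were exported by the authors with BeadStudio 3.3.7 without normalization, per the file headers. The deposited detection value is a fraction, 1 minus the detection p-value, judged from bright probes at 1. The deposited value table of the same arrays holds a linear ratio of each array to the mean of its region's 4 sham arrays, found by comparing the 2, and served as an alternative; in this and the other deposited table, replicate numbers run in mirrored order for 32 of 32 columns, which leaves groups unchanged.

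Signals were background-corrected and quantile-normalized over all 32 arrays with neqc of limma 3.58.1 (R 4.3.3, offset 16, negative controls inferred from the detection p-values), which yields log2 values. Probes detected at p under 0.01 on at least 4 arrays were kept (12758 of 25697) and the brightest probe per gene used, giving 9475 genes. Symbols were updated by accession for 23876 probes. An 8-group lmFit and eBayes fit gave differences, SEs and Benjamini-Hochberg adjusted p at 0.05. The association fit added the Hbb-b1 log2 signal. Permutations numbered 100000. Both fits were tested on simulated data. The members and the gene lists were chosen with earlier results of these data known. Named genes were the members, up to 3 changed genes per list and comparison with the largest difference, the 10 highest and 5 lowest correlations with Hbb-b1 and the 10 lowest p; other names were chosen after their values were seen, and a few genes of the lists are not reported here. The number of arrays limits precision. Same-numbered arrays of a region showed no steady joint deviation (r from -0.273 to 0.355), and no block entered the main fits. All 6 pairs were above 0 for replicate 2 in cortex (0.031 to 0.355) and replicate 3 in striatum (0.033 to 0.2). With slide as a block, the number of genes associated with Hbb-b1 went from 24 to 7.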

Additional observations from a re-analysis of the deposited data

Results flagged for a closer look

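In 24 checks of 4 arrays each (3 members in 8 groups, with Dixon's test at its critical value of 0.829 for 4 values), 3 arrays stood far from the other 3 of their group, all for Alas2. For independent, normally distributed values chance flags about 1 in 20 such groups, a rate that does not hold here. In each flagged group the other 3 arrays did not detect Alas2 and lay near background, and the 3 members moved together. Alas2 in cortex at 8 h was 6.06 on the log2 scale in replicate 2 and 4.64 to 4.79 in the others. In cortex at 24 h it was 7.67 in replicate 4 and 4.51 to 4.79 in the others. In sham striatum it was 5.47 in replicate 2, where the probe was not detected, and 4.51 to 4.64 in the others. The same 3 arrays were the highest of their groups for Hba-a1 and Hbb-b1.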

How the results depend on the processing

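All 252 alternative values of the member differences from sham moved by less than the pooled SD of the 2 groups compared. Those that left out 1 array could not fail this check, since dropping 1 of 4 arrays cannot move a mean that far. Among them the cortex 24 h difference went from 1.07 to 0.03 for Hbb-b1 and from 0.73 to -0.03 for Alas2. All 18 alternative values of the member correlations kept their direction and their call. Over background correction, scaling, the authors' ratios, separate regions, block and weights, the Hba-a1 difference at 2 h ranged from 3.96 to 4.58 in cortex and 3.59 to 3.86 in striatum. The genes called against sham at 2 h were less stable. In cortex, where 441 were called, the authors' ratios gave 2008, array weights 1660, the region fitted alone 209 and the Hbb-b1 covariate 142. In striatum, where 597 were called, they gave 1271, 2478 and 324 for the authors' ratios, weights and covariate. Under the authors' ratios the median of all genes shifted by -0.088 to -0.177 on the log2 scale and the cortical 2 h calls split into 154 higher and 1854 lower, against 209 and 232. Leaving out 1 array gave 173 to 399 at 2 h and 1148 to 1999 at 8 h in cortex, and 191 to 957 at 2 h in striatum. The cause was not tested.

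Of the 24 genes associated with Hbb-b1, 7 passed with slide as a replicate block (Alas2, Hba-a1, Clec4d, Hp, Lyz1, Lyz2 and Plac8). Same-numbered arrays deviated together only for some replicate numbers. Cortex alone gave 2, striatum alone 6, ranks of Hbb-b1 1 and the fit without 24 h arrays 4, the last 2 chosen after seeing the data; fewer arrays enter the fits of 1 region and without 24 h. Leaving out 1 array gave 17 to 77. The 24 genes, chosen on these arrays, kept the sign of their slope in every setting run. Hbb-b1 was detected on 19 arrays and Alas2 on 9, so their low values have no reliable order.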
